A study of Zea mays with 12 samples.

Results

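Endosperm RNA of maize (Zea mays) collected at 15 days after pollination (DAP) was compared with endosperm RNA collected at 10 DAP. The comparison takes in 4 of the 12 libraries of the series: both libraries labelled endosperm at 15 DAP and both labelled endosperm at 10 DAP. Each age holds 1 library of each reciprocal cross between the inbred lines B73 and Mo17. In BxM the mother was B73 and the pollen came from Mo17, and in MxB the roles were exchanged. Both are inbred lines with no further allele or treatment in the labels. The other 8 libraries, from whole kernels (0, 3 and 5 DAP) and from endosperm of 7 DAP, entered the same fit. There they bear on the filter for low counts, the scaling, the estimate of the spread and the term for the cross. Through the cross term they also bear on the fitted changes between 10 and 15 DAP. By its title the series concerns imprinting and maternal control over what nutrients reach this tissue.

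The endosperm is the seed tissue that feeds the embryo, and in maize it is triploid, with 2 maternal genome copies and 1 paternal copy. After a phase of cell division its central cells turn to filling, in which sucrose from the mother is made into starch and amino acids are stored as zeins, proteins that gather in bodies inside the endoplasmic reticulum. Around this starchy tissue lie the aleurone at the surface, the basal transfer layer that takes up nutrients and the region next to the embryo. In bulk tissue of this kind, fewer cells of a type and less RNA per cell cannot be told apart.

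Values are deposited read counts over 108342 gene models. Total counts were 59378582 (BxM) and 70930121 (MxB) at 10 DAP and 35401314 (BxM) and 39864984 (MxB) at 15 DAP. Levels are given in CPM, counts scaled to a library of 1000000, after TMM scaling, a correction for differences in library make-up. In each pair of values BxM stands first and MxB second. Levels are not divided by gene length, so changes are compared between libraries. Where models are ranked or summed by level, the order and the sums are of counts, which also depend on gene length. The test of age asks whether levels changed on average over both crosses. That change is set against the spread of all 12 libraries around an age term and a cross term. Since each cross has 1 library per age, a difference in change between the crosses enters this spread and is not tested by itself. The labels speak of 3 replicates per sample at RNA extraction, and 1 column per cross and age was used here, so the p-values measure only the spread between these libraries, which may in part be technical. All 4 libraries held starchy endosperm markers at high level, and those of 10 DAP also held markers of the basal and outer kernel, as described with the marker lists.

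Before any test, 21 models were set aside because of how their counts are listed at 15 DAP. Of these, 20 are at 0 in both 15 DAP libraries although their mean count at 10 DAP is 5000 or more, and 1 (GRMZM2G518465) is at 0 in MxB and at 903934 in BxM. The set-aside models include sh1, a sucrose synthase gene, with 175907 and 175505 counts at 10 DAP. They include the gamma-zein genes gz27, with 645990 and 606332 counts at 10 DAP, and gz16, with 121304 and 54658. The other 6 that carry a name are the alpha-zein genes z1A1_3, z1A1_5, z1A1_6, z1A2_1, z1A2_2 and z1C1_4, and the rest carry no name in the reference. Together they held 4.24% and 2.87% of all counts at 10 DAP. No change from 10 to 15 DAP is given for them. The highest count listed anywhere in the 15 DAP libraries was 992970 in BxM and 891986 in MxB, and no library lists a count of 1000000 or more. Whether larger counts were lost in making the files was not tested. If they were, the total counts, abundance ranks and shares given for 15 DAP are incomplete. The set-aside model of the lowest mean at 10 DAP is z1C1_4, at 13465 counts. The models just under the threshold, which stayed in the tests, are GRMZM2G141473, with 2570 and 6759 counts at 10 DAP, and GRMZM2G106655, with 1856 and 4687, each at 0 in both 15 DAP libraries.

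Of 46377 models tested, 1729 were higher at 15 DAP (3.73%) and 6479 were lower (14.0%) at an adjusted p under 0.05 in edgeR's quasi-likelihood test with Benjamini-Hochberg adjustment. Of the lower models 1217 were at 0 in both 15 DAP libraries, and of the higher models 72 were at 0 in both 10 DAP libraries, so their fitted log2 fold change is not a measured size. Among called models with a count at both ages, 1262 of 5262 lower models fell by a log2 of 4 or more and 257 of 1657 higher models rose by that much. With models at 0 entered at their bound against 3 counts, the median log2 fold change was -2.73 among the lower and 2.07 among the higher models. The median over all models tested was -0.37, and -0.32 with models at 0 at one age at that bound. This centre depends on the scaling: RLE and upper-quartile factors raised it by 0.26 and 0.30 and gave 2441 (5.26%) higher and 4939 (10.6%) lower models, or 2642 (5.70%) and 4793 (10.3%). The share of called models that were higher was then 33.1% or 35.5%, in place of 21.1%. Log2 changes near the centre are therefore read relative to the median of all models. The counts also rest on single libraries. The higher and lower models numbered 552 and 4135 on leaving out BxM of 10 DAP, 458 and 3208 on leaving out MxB of 10 DAP, 624 and 3357 on leaving out BxM of 15 DAP, and 1022 and 4209 on leaving out MxB of 15 DAP. A call on a gene is said to hold throughout where it stood in all 11 other settings and all 12 fits without 1 library that gave it a value. The SE given with a log2 fold change was derived from that change and its test statistic, and is approximate.

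Outside the set-aside models, the 10 most abundant at 10 DAP included 4 genes of glycolytic enzymes and no named zein gene, and 6 of the 10 most abundant at 15 DAP were named zein genes. The set-aside zein gene gz27 held the highest count of all models at 10 DAP, at 1.09% and 0.855% of counts. At 10 DAP the 10 most abundant models outside the set-aside group included an aldolase gene (ald1), glyceraldehyde-3-phosphate dehydrogenase genes (gpc4 and gpc3), a phosphoglycerate kinase gene (Pgk-2), the elongation factor gene EF1A, the chaperone gene hsp70-4 and the protein disulfide isomerase gene PDIL1-1. Among these 7 none passed the test between the ages. The aldolase gene ald1 lay at 6408 and 7915 CPM at 10 DAP and 4567 and 5492 CPM at 15 DAP (edgeR adjusted p = 0.285), and hsp70-4 at 7254 and 6142 CPM at 10 DAP and 6593 and 5866 CPM at 15 DAP (edgeR adjusted p = 0.916). The 10 DAP list is completed by grp1 and by 2 models without a name. GRMZM2G326111 fell from 4360.4 and 4144 CPM to 601 and 1039.7 CPM (log2 fold change -2.37 with SE 0.42, edgeR adjusted p = 0.00606), and GRMZM5G817178 lay at 4304 and 3352 CPM at 10 DAP and 3865 and 3217 CPM at 15 DAP (edgeR adjusted p = 0.893).

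At 15 DAP the 10 most abundant models were 6 named zein genes, grp1 and 3 models without a name. The alpha-zein gene z1A1_7 (GRMZM2G353268) stood at 34142 and 32650.3 CPM, against 515 and 484 CPM at 10 DAP, and its test did not pass (edgeR adjusted p = 0.0621). The model AF546187.1_FG007 rose from 10.4 and 9.10 CPM to 26542 and 22169 CPM (log2 fold change 11.30 with SE 2.93, edgeR adjusted p = 0.0296), and AF546187.1_FG001 from 169 and 65.1 CPM to 22866 and 19643 CPM (log2 fold change 7.43 with SE 2.04, edgeR adjusted p = 0.037). For GRMZM2G461650 the levels were 218 and 141 CPM at 10 DAP and 27106 and 14332 CPM at 15 DAP (edgeR adjusted p = 0.0521). The gene grp1 (GRMZM2G080603), which overlaps a second model with nearly the same reads, was the only model on both lists and rose from 6335 and 2529 CPM to 36819 and 11868 CPM (log2 fold change 2.38 with SE 0.64, edgeR adjusted p = 0.0336). In each of these models both 15 DAP libraries lay above both 10 DAP libraries. The call on grp1 was lost without the cross term (edgeR adjusted p = 0.164), on leaving out either library of 5 DAP, and on leaving out any 1 of the 4 libraries (edgeR adjusted p 0.103 to 0.18). The call on GRMZM2G326111 was lost on leaving out BxM of 15 DAP (edgeR adjusted p = 0.0604), that on AF546187.1_FG007 on leaving out any 1 of the 4 libraries (edgeR adjusted p 0.0572 to 0.185) and that on AF546187.1_FG001 on leaving out any 1 of the 4 libraries (edgeR adjusted p 0.0727 to 0.211).

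A larger share of counts lay in the most abundant models at 15 than at 10 DAP. Without the set-aside models, the 10 most abundant models of each library held 4.69% and 4.23% of counts at 10 DAP and 21.4% and 14.99% at 15 DAP. The 1000 most abundant held 51.0% and 49.4% at 10 DAP and 69.98% and 65.5% at 15 DAP. BxM lay above MxB at both ages, by a wider gap at 15 DAP. Overlapping models that hold the same reads, such as FL2, grp1 and z1A1_7 with their second models, are counted separately in these shares. With such models counted once, an alternative chosen after seeing the data, the 10 most abundant held 4.58% and 4.31% at 10 DAP and 20.2% and 13.98% at 15 DAP.

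**Figure D1:**
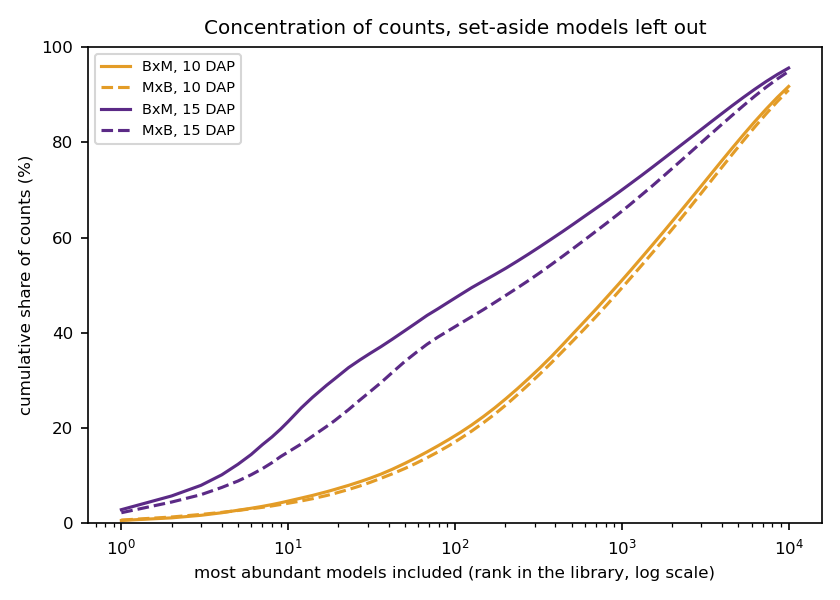
Cumulative share of counts (%, vertical axis) held by the most abundant models of each library (rank, log scale, horizontal axis), with the set-aside models left out and overlapping models of the same reads counted separately. The 15 DAP curves lie above both 10 DAP curves: at 10 models they stand at 21.4% (BxM) and 14.99% (MxB) against 4.69% and 4.23%.

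By fitted log2 fold change the leading named increases were almost all zeins. In this order, with a mean count of at least 100, the 12 leading named models that rose were 11 zein genes and the cystatin gene cc6 (GRMZM2G401328). Cystatins inhibit cysteine proteases. The zein gene z1C1_12 (GRMZM2G088365) rose from 0.0830 and 0 CPM to 111 and 178 CPM (log2 fold change 11.83 with SE 0.99, edgeR adjusted p = 0.00148). Next came z1C1_11, with 2 counts over both 10 DAP libraries and 15.7 and 8.02 CPM at 15 DAP (edgeR adjusted p = 0.0186). FL2 (GRMZM2G397687), whose product is an alpha-zein, had 129 and 61.4 CPM at 10 DAP and 47890.3 and 18446 CPM at 15 DAP (log2 fold change 8.43 with SE 2.29, edgeR adjusted p = 0.0353). The 50 kDa gamma-zein gene gz50 (GRMZM2G138689) rose from 105 and 43.4 CPM to 25278 and 19248 CPM (log2 fold change 8.18 with SE 2.03, edgeR adjusted p = 0.0246). The remaining 7 zein genes of the 12, z1A1_8, z1C1_7, z1C1_8, z1A1_2, z1C1_5, z1B_7 and z1A2_3, had log2 fold changes of 8.04 to 5.94. The cystatin gene cc6 rose from 4.11 and 6.68 CPM to 387 and 374 CPM (log2 fold change 6.31 with SE 0.80, edgeR adjusted p = 0.00153). In all 12 the 15 DAP libraries lay above the 10 DAP libraries, and the calls on z1C1_12, z1A1_8 and cc6 held throughout. The call on FL2 was lost on leaving out any 1 of the 4 libraries (edgeR adjusted p 0.0668 to 0.207), that on gz50 on leaving out any 1 of the 4 libraries (edgeR adjusted p 0.0519 to 0.164), and that on z1C1_11 in DESeq2 (adjusted p = 0.135) and on leaving out BxM of 10 DAP, BxM of 15 DAP or MxB of 15 DAP (edgeR adjusted p = 0.0672, 0.124 and 0.0505). The calls on z1C1_7, z1C1_8, z1C1_5 and z1B_7 were lost on leaving out any 1 of the 4 libraries. Those on z1C1_7, z1C1_8 and z1C1_5 were also lost on leaving out either library of 3 DAP. The call on z1A1_2 was lost on leaving out BxM of 10 DAP, MxB of 10 DAP or BxM of 15 DAP. That on z1A2_3 was lost on leaving out MxB of 10 DAP or BxM of 15 DAP. The call on z1B_7 was also lost in DESeq2 (adjusted p = 0.389). Those on z1C1_8 and z1C1_5 were also lost with RLE factors (edgeR adjusted p = 0.0522 and 0.0515), without the cross term (edgeR adjusted p = 0.0553 and 0.0537) and with the set-aside models kept. Alpha-zein copies are near-identical, so reads may have been shared among them and the value of any single copy is uncertain.

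By fitted log2 fold change, the leading named decreases ended at or near 0 counts. Of the 12 leading named models that fell, 11 had no count in either 15 DAP library, and each is given as a lower bound against 3 counts over both libraries. The fitted values of models at 0 are not measured sizes, so this order does not rank the measured falls. The bounds ran from 71.5- to 280.2-fold, while the transfer layer gene bap2, outside the 12 and named after its values were seen, fell 1429-fold in BxM and 275-fold in MxB (edgeR adjusted p = 0.00786), a call lost on leaving out BxM of 15 DAP or MxB of 15 DAP (edgeR adjusted p = 0.076 and 0.0519). The leading models include esr6 (GRMZM2G048353), of the region around the embryo, with 638 and 1163 counts at 10 DAP (at least 266-fold lower, edgeR adjusted p = 0.00144), and ebe2, a gene of the basal endosperm, with 195 and 1703 counts (at least 280.2-fold lower, edgeR adjusted p = 0.00307). The beta-tubulin gene TUB8 had 465 and 725 counts (at least 176-fold lower, edgeR adjusted p = 0.000302). These genes were detected in both crosses at 10 DAP, with MxB at the higher CPM.

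Regulators and a transporter stood in the same group. MYB51 (GRMZM5G803355) had 380 and 816 counts at 10 DAP (at least 177-fold lower), and the DOF gene dof2 (GRMZM2G009406) had 260 and 601 counts (at least 127-fold lower). EREB101, of the ethylene-responsive factor family, had 208 and 838 counts (at least 154-fold lower), and bZIP9 251 and 486 counts (at least 109-fold lower). The auxin transporter gene PIN5c had 165 and 479 counts (at least 95.1-fold lower). The edgeR adjusted p of these 5 lay between 0.000402 and 0.00874. The others at 0 were glossy2, ae1 of the region around the embryo and a second model named meg2 (GRMZM2G088896), and mn1, the 12th, is described with the sugar genes. The call on this meg2 model was lost on leaving out MxB of 15 DAP (edgeR adjusted p = 0.0588), and the other 11 held throughout.

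**Figure D2:**
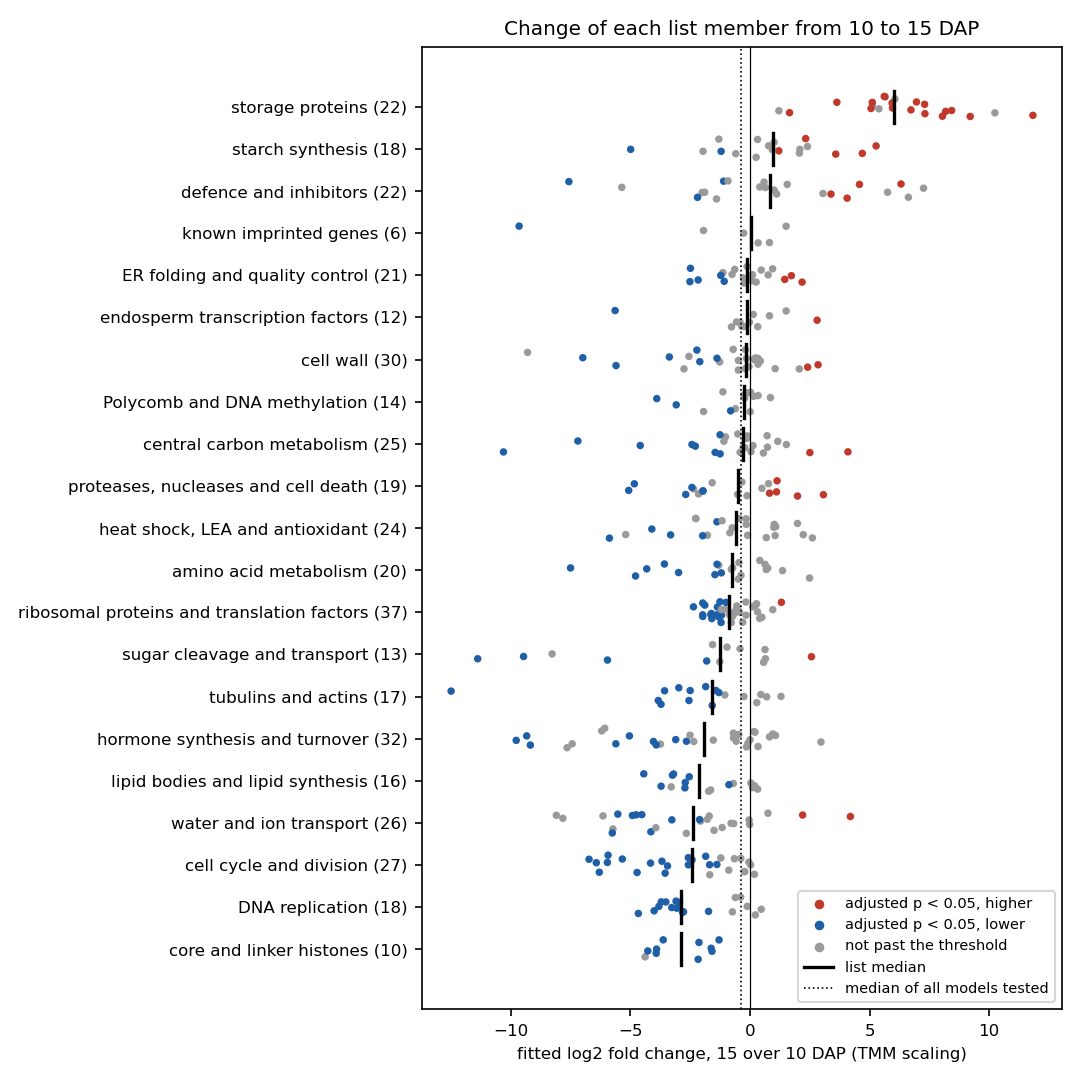
Fitted log2 fold change at 15 over 10 DAP (horizontal axis) of each tested member with a count in the 4 libraries, by gene list, with the number tested in brackets. Red and blue points passed edgeR's adjusted p of 0.05, grey points did not, black bars are list medians and the dotted line is the median of all models (-0.37). Members at 0 at one age stand at their fitted value, which is not a measured size. The list median is highest for storage proteins, at 6.01, and lowest for histones and replication genes, at -2.90 and -2.88.

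Known genes were grouped into 21 lists by function, with 424 of 446 listed models tested. In all, 43 rose and 141 fell, which is 10.1% and 33.3% of those tested against 3.73% and 14.0% of all models. With upper-quartile factors the counts were 54 and 119, and 83 of the 184 calls held throughout. The counts of higher and lower members were 20 and 114 on leaving out BxM of 10 DAP, 14 and 95 on leaving out MxB of 10 DAP, 17 and 87 on leaving out BxM of 15 DAP and 25 and 101 on leaving out MxB of 15 DAP. The members were not matched with other models for abundance, so nothing particular to the lists is read from these shares. This holds for each list below, whose counts stand against the same 3.73% and 14.0% of all models.

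Zein genes of the alpha, beta, gamma and delta classes rose, although only gz50 stood for the gamma class. Of 31 listed models, 8 were set aside and 1 had too few counts. Of the 22 tested, 17 rose and none fell, with a median log2 fold change of 6.01. Beside the alpha-zeins and gz50, the beta-zein gene bz15 (GRMZM2G086294) rose from 1824 and 685 CPM to 22023 and 8913 CPM (log2 fold change 3.63 with SE 0.87, edgeR adjusted p = 0.0216). The delta-zein gene dzs18 (GRMZM2G100018) rose from 826 and 129 CPM to 2044 and 593 CPM (log2 fold change 1.65 with SE 0.45, edgeR adjusted p = 0.0341). The alpha-zein copy z1B_9 rose from 24.6 and 9.38 CPM to 651 and 456 CPM (log2 fold change 5.11 with SE 0.64, edgeR adjusted p = 0.00144). In bz15, dzs18 and z1B_9 the BxM library lay above MxB at both ages. The call on z1B_9 held throughout, that on bz15 was lost on leaving out BxM of 10 DAP, MxB of 10 DAP or BxM of 15 DAP (edgeR adjusted p = 0.0713, 0.16 and 0.129), and that on dzs18 without the cross term (edgeR adjusted p = 0.307) and on leaving out MxB of 10 DAP, BxM of 15 DAP or MxB of 15 DAP (edgeR adjusted p = 0.236, 0.19 and 0.0896). The globulin-type gene leg1 (GRMZM2G174883) lay at 2153 and 1631 CPM at 10 DAP and 3695 and 6992 CPM at 15 DAP and did not pass (edgeR adjusted p = 0.198), nor did z1C1_1, z1C1_2, z1C1_13 and z1A1_7 (edgeR adjusted p 0.0596 to 0.0687). Over the tested members the summed level went from 6892 and 3682 CPM to 250644 and 172567 CPM. Leaving out 1 of the 4 compared libraries took most calls away: higher and lower members then numbered 6 and 0 on leaving out BxM of 10 DAP, 4 and 0 on leaving out MxB of 10 DAP, 3 and 0 on leaving out BxM of 15 DAP and 6 and 0 on leaving out MxB of 15 DAP.

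Among 12 regulators of the endosperm, 1 rose and 1 fell (8.33% each), and 10 did not pass. The bZIP activator gene o2 rose from 142 and 56.1 CPM to 841 and 543 CPM (log2 fold change 2.81 with SE 0.76, edgeR adjusted p = 0.0352), and this call was lost on leaving out any 1 of the 4 libraries (edgeR adjusted p 0.0534 to 0.251). Its partner pbf1 lay at 34.9 and 33.6 CPM at 10 DAP and 32.2 and 54.6 CPM at 15 DAP (edgeR adjusted p = 0.726), and NRP1, a NAC gene, at 999 and 493 CPM at 10 DAP and 1700.5 and 928 CPM at 15 DAP (edgeR adjusted p = 0.415). For pbf1 the ages overlapped, since BxM was lower at 15 DAP and MxB higher. The gene fl3, of the PLATZ family, stood at 4510.3 and 2049.8 CPM at 10 DAP and 11353 and 7617 CPM at 15 DAP (edgeR adjusted p = 0.263), with both 15 DAP libraries above both at 10 DAP. The DOF gene dof3 fell from 3.28 and 5.22 CPM to 0.0965 and 0.0732 CPM (log2 fold change -5.64 with SE 0.63, edgeR adjusted p = 0.00096), a call that held throughout on 4 counts at 15 DAP.

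In starch synthesis 5 genes rose, among them the small subunit of ADP-glucose pyrophosphorylase and the granule-bound synthase, and sus1 and GBSSIIa fell. Over the 18 tested members the median was 0.97, and with upper-quartile factors 8 rose and 2 fell. Higher and lower members numbered 3 and 1 on leaving out BxM of 10 DAP, 2 and 2 on leaving out MxB of 10 DAP and 2 and 1 on leaving out BxM of 15 DAP. ADP-glucose pyrophosphorylase makes the sugar donor for starch. The gene of its small subunit, bt2 (GRMZM2G068506), rose from 892 and 775 CPM to 8639.7 and 12632 CPM (log2 fold change 3.58 with SE 0.74, edgeR adjusted p = 0.0115). That of its large subunit, sh2 (GRMZM2G429899), was at 2094 and 2133 CPM at 10 DAP and 10550.3 and 12172 CPM at 15 DAP and did not pass (log2 fold change 2.40, edgeR adjusted p = 0.108). The gene bt1, whose product carries ADP-glucose into the amyloplast, was at 1846 and 1129 CPM at 10 DAP and 7253 and 5598 CPM at 15 DAP (edgeR adjusted p = 0.136). For all 3 genes both 15 DAP libraries lay above both 10 DAP libraries.

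Starch synthase genes changed in both directions. The granule-bound synthase gene wx1 (GRMZM2G024993) rose from 404 and 209 CPM to 14535 and 9218 CPM (log2 fold change 5.27 with SE 1.08, edgeR adjusted p = 0.0112). GBSSIIa (GRMZM2G008263), the form known from tissues other than storage endosperm, fell from 20.5 and 20.5 CPM to 7.96 and 9.96 CPM (log2 fold change -1.21 with SE 0.24, edgeR adjusted p = 0.0102). The soluble synthase gene ss1 (GRMZM2G129451) rose from 209 and 165 CPM to 894 and 953 CPM (log2 fold change 2.33 with SE 0.35, edgeR adjusted p = 0.00286). The log2 ratio of 15 over 10 DAP was 5.17 in BxM and 5.46 in MxB for wx1, and -1.36 and -1.04 for GBSSIIa. zSSIIa rose by a log2 of 1.20 (SE 0.29, edgeR adjusted p = 0.0217), and du1, a further soluble synthase gene, did not pass (log2 fold change 2.07, edgeR adjusted p = 0.0635). Among branching enzyme genes SBEIIb and sbe1 did not pass (log2 fold changes 1.01 and 0.94, edgeR adjusted p = 0.0873 and 0.0697). The debranching enzyme gene zpu1 (GRMZM2G158043) rose from 5.38 and 8.54 CPM to 188 and 167 CPM (log2 fold change 4.69 with SE 0.44, edgeR adjusted p = 0.000578). The calls on ss1, zpu1 and sus1 held throughout, while that on bt2 was lost on leaving out MxB of 10 DAP or BxM of 15 DAP (edgeR adjusted p = 0.102 and 0.0576) and that on wx1 on leaving out BxM of 10 DAP, MxB of 10 DAP or BxM of 15 DAP (edgeR adjusted p = 0.0509, 0.096 and 0.0594). The call on GBSSIIa was lost on leaving out BxM of 10 DAP or BxM of 15 DAP (edgeR adjusted p = 0.0785 and 0.0747), and that on zSSIIa on leaving out BxM of 10 DAP, MxB of 10 DAP or BxM of 15 DAP (edgeR adjusted p = 0.0622, 0.185 and 0.145).

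**Figure D3:**
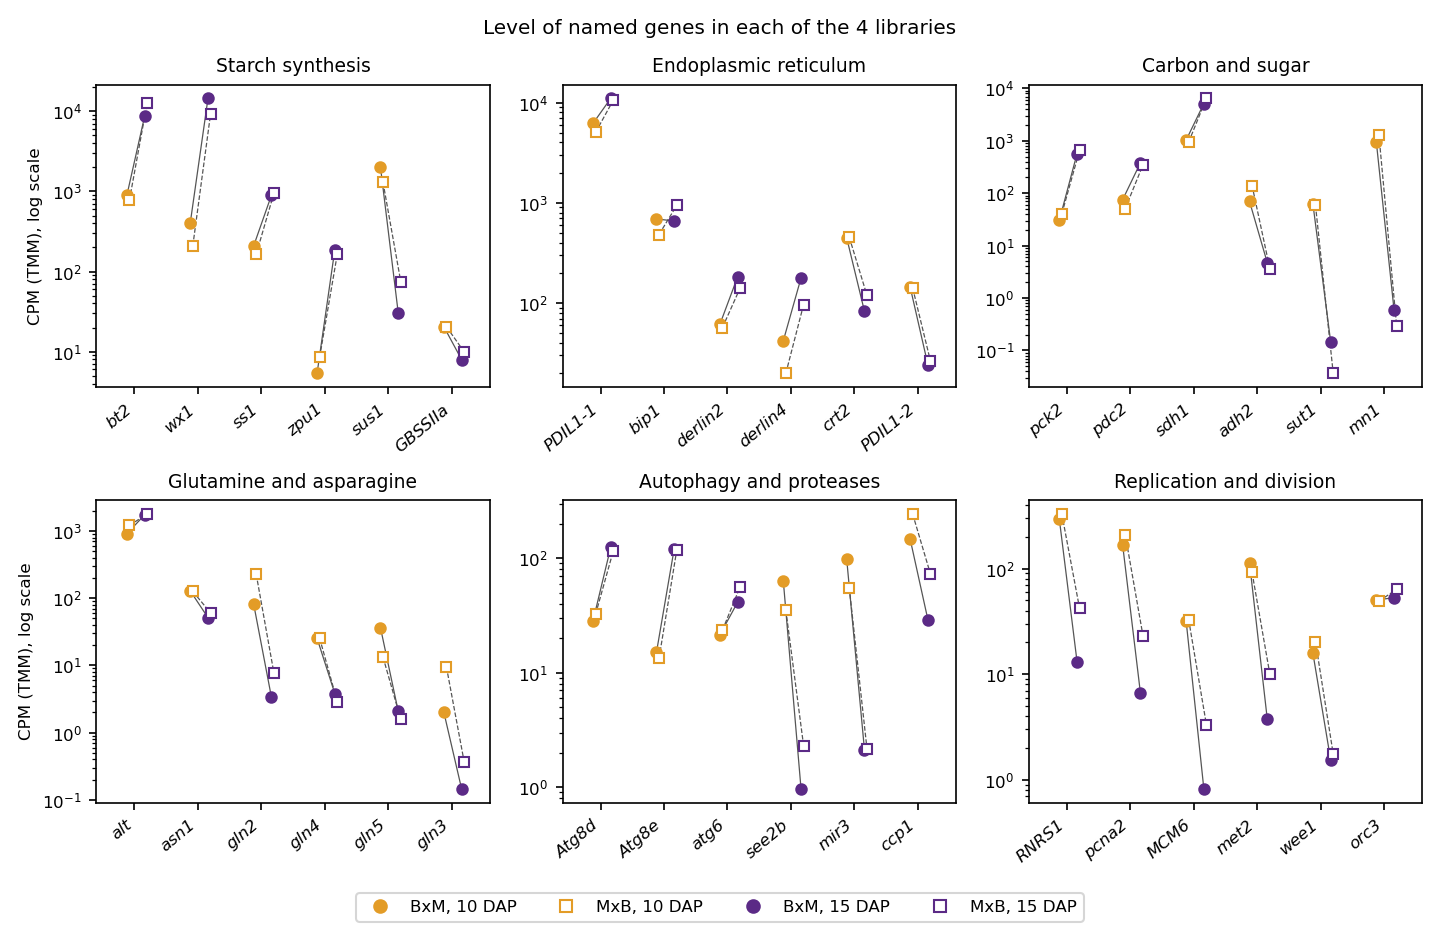
Level (CPM after TMM scaling, log scale) of 36 named genes in 6 groups, with 10 DAP in orange, 15 DAP in purple, BxM as filled circles and MxB as open squares, and lines joining the ages of 1 cross. Within a group genes move in both directions: bt2, wx1, ss1 and zpu1 rise where sus1 and GBSSIIa fall, and Atg8d and Atg8e rise where see2b and mir3 fall.

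The sucrose synthase gene sus1 and 4 genes of the sugar list, among them mn1, sut1 and sps1, fell, and the sorbitol dehydrogenase gene sdh1 rose. The sucrose synthase gene sus1 (GRMZM2G152908) fell from 2006 and 1296 CPM to 30.4 and 74.7 CPM (log2 fold change -4.99 with SE 0.54, edgeR adjusted p = 0.000902). For sus2 (GRMZM2G318780) the levels were 202 and 81.9 CPM at 10 DAP and 27.5 and 28.8 CPM at 15 DAP, and its test did not pass (edgeR adjusted p = 0.104). Of 13 tested members of the sugar list, 4 fell and 1 rose, with a median of -1.26. With upper-quartile factors 3 rose and 4 fell, as in DESeq2, and with RLE factors 2 rose and 4 fell. The sucrose transporter gene sut1 (GRMZM2G034302) fell from 62.2 and 59.4 CPM to 0.145 and 0.0366 CPM (log2 fold change -9.46 with SE 0.55, edgeR adjusted p = 0.000259), the last pair being 3 and 1 counts. The cell wall invertase gene mn1 (GRMZM2G119689), of the transfer layer, fell from 945 and 1306 CPM to 0.579 and 0.293 CPM (log2 fold change -11.38 with SE 1.14, edgeR adjusted p = 0.000677). The sucrose-phosphate synthase gene sps1 (GRMZM5G875238) fell from 42.9 and 15.2 CPM to 0.0965 and 0.549 CPM (log2 fold change -5.96 with SE 0.97, edgeR adjusted p = 0.00428). The calls on sus1, sut1, mn1 and sps1 held throughout, and none of the 4 overlapped between the ages.

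Other transporters of sucrose did not pass the test, and of the fructokinase genes 1 fell. The transporter genes sut2 and sut4 had log2 fold changes of 0.65 and -0.96 (edgeR adjusted p = 0.107 and 0.136). Fructokinases phosphorylate the fructose that sucrose synthase releases. The fructokinase gene frk2 fell from 186 and 159.8 CPM to 50.4 and 47.7 CPM (log2 fold change -1.81 with SE 0.34, edgeR adjusted p = 0.00826), a call lost on leaving out MxB of 10 DAP or BxM of 15 DAP (edgeR adjusted p = 0.0594 and 0.08), while frk1 was at 31.6 and 26.6 CPM at 10 DAP and 46.7 and 43 CPM at 15 DAP (edgeR adjusted p = 0.223). Sorbitol dehydrogenase interconverts fructose and sorbitol, and its gene sdh1 (GRMZM2G175423) rose from 1029.6 and 944 CPM to 5146 and 6490.4 CPM (log2 fold change 2.57 with SE 0.42, edgeR adjusted p = 0.0043), with a call that held throughout. The markers of the transfer layer, of which mn1 is 1, moved with sut1 and sps1, as given with the marker lists, and their part in these results was not tested.

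In central carbon metabolism most members did not pass. Of 25 tested, 2 rose and 8 fell, with a median of -0.28 that becomes 0.05 with upper-quartile factors, so no direction is given for the list. With those factors 4 rose and 7 fell. For rises and falls the counts were 1 and 5 on leaving out MxB of 10 DAP and 1 and 3 on leaving out BxM of 15 DAP. The phosphoenolpyruvate carboxykinase gene pck2 (GRMZM5G870932) rose from 30.3 and 40.5 CPM to 568 and 661 CPM (log2 fold change 4.09 with SE 0.63, edgeR adjusted p = 0.00329). Of the pyruvate decarboxylase genes, pdc2 (GRMZM2G038821) rose from 75.7 and 51 CPM to 381 and 349 CPM (log2 fold change 2.50 with SE 0.48, edgeR adjusted p = 0.00882). In contrast, pdc3 (GRMZM2G087186) fell from 302 and 300.4 CPM to 108 and 150.1 CPM (log2 fold change -1.25 with SE 0.24, edgeR adjusted p = 0.00835). The 2 genes thus moved in opposite directions in each cross.

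Of the alcohol dehydrogenase genes, adh1 (GRMZM2G442658) was at 681 and 773 CPM at 10 DAP and 809 and 539 CPM at 15 DAP (edgeR adjusted p = 0.885), with the ages overlapping, and adh2 (GRMZM2G098346) fell from 69.8 and 140.3 CPM to 4.73 and 3.66 CPM (log2 fold change -4.59 with SE 0.49, edgeR adjusted p = 0.000872). The malate dehydrogenase gene mdh5 fell from 524 and 634 CPM to 181 and 243 CPM (log2 fold change -1.46 with SE 0.26, edgeR adjusted p = 0.00621), and mdh6, at 3.63 and 18 CPM at 10 DAP, had 2 and 1 counts left at 15 DAP (edgeR adjusted p = 0.000842). The phosphoenolpyruvate carboxylase gene pep4 (GRMZM2G473001) fell from 95.2 and 52.1 CPM to 15.9 and 11.3 CPM (log2 fold change -2.42 with SE 0.32, edgeR adjusted p = 0.00186). PPDK2, of pyruvate orthophosphate dikinase, was among the abundant members, at 3818 and 1957 CPM at 10 DAP and 10013 and 6478 CPM at 15 DAP, and did not pass (edgeR adjusted p = 0.103). The calls on pck2, adh2, mdh6 and pep4 held throughout. That on pdc2 was lost on leaving out MxB of 10 DAP or BxM of 15 DAP (edgeR adjusted p = 0.0795 and 0.0655), that on pdc3 on leaving out BxM of 10 DAP or BxM of 15 DAP (edgeR adjusted p = 0.0734 and 0.0756), and that on mdh5 on leaving out MxB of 10 DAP or BxM of 15 DAP (edgeR adjusted p = 0.0518 and 0.0667).

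All 5 measured genes of glutamine synthetase fell. This enzyme binds ammonium into glutamine, from which other amino acids take their nitrogen. The gene gln2 (GRMZM2G024104) fell from 81.8 and 228 CPM to 3.38 and 7.65 CPM (log2 fold change -4.78 with SE 0.63, edgeR adjusted p = 0.00177). The gene gln4 (GRMZM5G872068) fell from 25.3 and 25.5 CPM to 3.81 and 2.86 CPM (log2 fold change -2.98 with SE 0.37, edgeR adjusted p = 0.00138). For gln3 (GRMZM2G046601) the fall was from 1.99 and 9.50 CPM to 0.145 and 0.366 CPM (log2 fold change -4.31 with SE 0.46, edgeR adjusted p = 0.000822). The other 2 were gln5, with a log2 fold change of -3.57 (SE 0.61, edgeR adjusted p = 0.005), and GLN6 (GRMZM2G050514), which fell from 5.56 and 45.7 CPM to 0.289 and 0.0366 CPM (log2 fold change -7.50 with SE 1.53, edgeR adjusted p = 0.011). At 10 DAP GLN6 was much higher in MxB than in BxM, and its log2 ratio of 15 over 10 DAP was -4.26 in BxM and -10.29 in MxB. Calls on gln2, gln3 and gln4 held throughout, that on gln5 was lost on leaving out BxM of 15 DAP (edgeR adjusted p = 0.0532), and that on GLN6 on leaving out BxM of 15 DAP or MxB of 15 DAP (edgeR adjusted p = 0.0585 and 0.088).

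Over the whole amino acid list 8 of 20 members fell and none rose, with a median of -0.75. The other 3 that fell were asn1 (GRMZM2G074589), of asparagine synthetase, from 128 and 126 CPM to 51.4 and 60.6 CPM (log2 fold change -1.20 with SE 0.26, edgeR adjusted p = 0.0142), and the aspartate kinase genes ASK2 and AK1, with log2 fold changes of -1.46 (SE 0.29, edgeR adjusted p = 0.0101) and -1.38 (SE 0.28, edgeR adjusted p = 0.0101). The call on asn1 was lost with upper-quartile factors (edgeR adjusted p = 0.0518) and on leaving out BxM of 10 DAP, BxM of 15 DAP or MxB of 15 DAP (edgeR adjusted p = 0.106, 0.0891 and 0.079), that on ASK2 on leaving out any 1 of the 4 libraries (edgeR adjusted p 0.0515 to 0.0656), and that on AK1 on leaving out MxB of 10 DAP, BxM of 15 DAP or MxB of 15 DAP (edgeR adjusted p = 0.099, 0.0642 and 0.058). The most abundant member was alt, of alanine aminotransferase, at 912 and 1211 CPM at 10 DAP and 1736 and 1794 CPM at 15 DAP (edgeR adjusted p = 0.169), and the lysine-degrading enzyme gene lkrsdh1 was at 40.7 and 18.4 CPM at 10 DAP and 43.7 and 32.6 CPM at 15 DAP (edgeR adjusted p = 0.747). Here rises and falls numbered 0 and 3 on leaving out BxM of 15 DAP and 0 and 4 on leaving out MxB of 15 DAP.

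Genes of the endoplasmic reticulum, where zeins are folded and stored, changed in both directions. Of 21 tested, 3 rose (14.3%) and 5 fell (23.8%), against 3.73% and 14.0% of all models. The list median of -0.12 turns positive with RLE (0.16) and upper-quartile factors (0.22), so no direction is given for the list. With upper-quartile factors 4 rose and 4 fell. Rises and falls numbered 1 and 3 on leaving out BxM of 10 DAP, 2 and 2 on leaving out MxB of 10 DAP, 2 and 3 on leaving out BxM of 15 DAP and 2 and 3 on leaving out MxB of 15 DAP. Derlins take part in the removal of misfolded proteins from this compartment. The derlin genes derlin4 (GRMZM2G112609) and derlin2 (GRMZM2G082976) rose from 42 and 19.9 CPM to 178 and 96.3 CPM (log2 fold change 2.18 with SE 0.27, edgeR adjusted p = 0.00144) and from 61.3 and 56.9 CPM to 183 and 142 CPM (log2 fold change 1.45 with SE 0.27, edgeR adjusted p = 0.00694), while derlin1 was at 44.4 and 60.1 CPM at 10 DAP and 61.3 and 118 CPM at 15 DAP (edgeR adjusted p = 0.142). Each of these 3 genes stood above its 10 DAP level in both crosses.

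The protein disulfide isomerase family, whose members form disulfide bonds in new proteins, had 1 member that rose and 4 that fell. PDIL5-1 (GRMZM2G443655) rose from 31 and 55.7 CPM to 118 and 167 CPM (log2 fold change 1.73 with SE 0.33, edgeR adjusted p = 0.00818). PDIL1-2 (GRMZM2G163421) fell from 145 and 141 CPM to 24.3 and 26.5 CPM (log2 fold change -2.49 with SE 0.28, edgeR adjusted p = 0.000971). PDIL1-5, PDIL2-2 and PDIL5-4 fell by 2.51, 1.22 and 1.08 on the log2 scale. The most abundant member, PDIL1-1 (GRMZM2G091481), was at 6213 and 5055 CPM at 10 DAP and 11048 and 10606 CPM at 15 DAP, with all 15 DAP values above those at 10 DAP, and its test did not pass (log2 fold change 0.94 with SE 0.35, edgeR adjusted p = 0.102). The calreticulin gene crt2 (GRMZM2G358059) fell from 446 and 455 CPM to 82.7 and 119 CPM (log2 fold change -2.16 with SE 0.28, edgeR adjusted p = 0.00167). Its companion calnexin gene CNX was at 206 and 232 CPM at 10 DAP and 179 and 225 CPM at 15 DAP (edgeR adjusted p = 0.821). The chaperone gene bip1 was at 690.1 and 483 CPM at 10 DAP and 659 and 943 CPM at 15 DAP (edgeR adjusted p = 0.315), and its ages overlapped, because BxM was slightly lower at 15 DAP. The calls on derlin4, crt2 and PDIL1-2 held throughout. That on derlin2 was lost on leaving out BxM of 10 DAP, MxB of 10 DAP or BxM of 15 DAP (edgeR adjusted p = 0.053, 0.0664 and 0.0572), that on PDIL5-1 on leaving out BxM of 10 DAP or MxB of 15 DAP (edgeR adjusted p = 0.0716 and 0.0566), that on PDIL1-5 on leaving out BxM of 10 DAP, MxB of 10 DAP or MxB of 15 DAP (edgeR adjusted p = 0.0692, 0.082 and 0.0957) and that on PDIL2-2 on leaving out MxB of 10 DAP or BxM of 15 DAP (edgeR adjusted p = 0.0631 and 0.0842). The call on PDIL5-4 was lost with upper-quartile factors (edgeR adjusted p = 0.0566) and on leaving out any 1 of the 4 libraries (edgeR adjusted p 0.0554 to 0.106).

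Many genes of ribosomal proteins and translation factors fell by modest amounts, in numbers that depend on the scaling. Of 37 tested, 15 fell and 1 rose, with a median of -0.86. With RLE or upper-quartile factors 6 fell, and the medians were -0.57 and -0.52. The translation factor gene eif5a (GRMZM2G113696) fell from 1021 and 1087 CPM to 266 and 270.0 CPM (log2 fold change -1.97 with SE 0.27, edgeR adjusted p = 0.00196). Of the acidic stalk proteins of the large subunit, rpp2a-3 (GRMZM2G010257) fell from 85.2 and 53.7 CPM to 14.1 and 12.1 CPM (log2 fold change -2.36 with SE 0.37, edgeR adjusted p = 0.0037). RP-P0 (GRMZM2G066460) fell from 1323 and 1509 CPM to 423 and 516 CPM (log2 fold change -1.59 with SE 0.26, edgeR adjusted p = 0.00458). In each of these genes both 15 DAP libraries lay below both at 10 DAP. The member that rose was rps27 (GRMZM2G066222), of the small subunit, from 359.6 and 379 CPM to 957 and 888 CPM (log2 fold change 1.31 with SE 0.25, edgeR adjusted p = 0.0085). The elongation factor gene elfa2 was at 2641 and 2884 CPM at 10 DAP and 2860.1 and 3099 CPM at 15 DAP (edgeR adjusted p = 0.864). Its relative elfa3 was at 1957 and 2618 CPM at 10 DAP and 1732 and 1947 CPM at 15 DAP (edgeR adjusted p = 0.517). Of the 16 calls those on eif5a and rpp2a-3 held throughout, that on RP-P0 was lost on leaving out BxM of 15 DAP (edgeR adjusted p = 0.0516), and that on rps27 on leaving out BxM of 10 DAP or MxB of 15 DAP (edgeR adjusted p = 0.0873 and 0.0513). Higher and lower members numbered 0 and 6 on leaving out BxM of 10 DAP, 1 and 3 on leaving out MxB of 10 DAP, 1 and 2 on leaving out BxM of 15 DAP and 0 and 4 on leaving out MxB of 15 DAP.

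Most DNA replication genes fell. Of 18 tested, 12 fell and none rose, with a median of -2.88, and 9 of the 12 calls held throughout. The replication clamp gene pcna1 (GRMZM2G030523) fell from 96.7 and 111 CPM to 3.86 and 13 CPM (log2 fold change -3.71 with SE 0.45, edgeR adjusted p = 0.00137). MCM7 (GRMZM2G065205), of the replicative helicase, fell from 34.1 and 44.3 CPM to 1.88 and 7.65 CPM (log2 fold change -3.09 with SE 0.54, edgeR adjusted p = 0.00579). RNRS1 (GRMZM2G060163), of the small subunit of ribonucleotide reductase, which makes deoxyribonucleotides, fell from 294 and 328 CPM to 13.2 and 41.9 CPM (log2 fold change -3.52 with SE 0.52, edgeR adjusted p = 0.00275). All 5 ribonucleotide reductase genes fell, by a log2 of 2.78 to 4.66.

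Of the genes of the origin recognition complex 2 fell. The genes orc1 and orc2 fell, orc2 from 16.2 and 16.5 CPM to 1.64 and 2.31 CPM (log2 fold change -3.06 with SE 0.39, edgeR adjusted p = 0.00148), while orc3 was at 50.3 and 49.1 CPM at 10 DAP and 53 and 63.5 CPM at 15 DAP and orc4 at 32 and 31.5 CPM at 10 DAP and 52.7 and 35.6 CPM at 15 DAP (edgeR adjusted p = 0.634 and 0.309). The histone chaperone genes ssrp1 and SPT16, which also act in transcription, did not pass (log2 fold changes -0.12 and -0.73, edgeR adjusted p = 0.78 and 0.13). The flap endonuclease gene FEN1 did not pass either (log2 fold change -0.39, edgeR adjusted p = 0.363). The call on orc1 was lost on leaving out BxM of 10 DAP, MxB of 10 DAP or BxM of 15 DAP (edgeR adjusted p = 0.114, 0.084 and 0.152), that on RNRL1 on leaving out BxM of 15 DAP or MxB of 15 DAP (edgeR adjusted p = 0.063 and 0.0616), and that on RNRS2 on leaving out MxB of 10 DAP or BxM of 15 DAP (edgeR adjusted p = 0.102 and 0.0731).

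Most cell division genes fell. Of 27 tested, 17 fell and none rose, with a median of -2.42, and 13 of the 17 calls held throughout. The gene cyc1 (GRMZM2G034647), of an A-type cyclin, fell from 11 and 14.8 CPM to 0.0965 and 0.220 CPM (log2 fold change -6.30 with SE 0.40, edgeR adjusted p = 0.000261). The spindle checkpoint gene mad2 (GRMZM2G047143) fell from 14.2 and 14.1 CPM to 0.434 and 1.10 CPM (log2 fold change -4.16 with SE 0.54, edgeR adjusted p = 0.00159). WEE1 is a kinase that holds back entry into mitosis, and wee1 (GRMZM5G878541) fell from 15.8 and 20.3 CPM to 1.54 and 1.76 CPM (log2 fold change -3.45 with SE 0.42, edgeR adjusted p = 0.0013). Each had no overlap between the ages. Kinesins move chromosomes and vesicles along microtubules. Of 8 kinesin genes 5 fell, by a log2 of 5.34 (krp13), 4.72 (KIN8), 3.68 (krp11), 2.58 (krp4) and 2.42 (krp6), and KIN1, krp9 and krp15 did not pass. Retinoblastoma-related proteins restrain entry into the cycle. RBR1 was at 34.2 and 35.4 CPM at 10 DAP and 34.5 and 44.9 CPM at 15 DAP (edgeR adjusted p = 0.842), and RBR2 at 11.7 and 23.5 CPM at 10 DAP and 12.1 and 21.8 CPM at 15 DAP (edgeR adjusted p = 1). The third, rbr3, fell from 40.1 and 48.3 CPM to 4.29 and 10.7 CPM (log2 fold change -2.58 with SE 0.50, edgeR adjusted p = 0.00852). The call on rbr3 was lost on leaving out MxB of 10 DAP or BxM of 15 DAP (edgeR adjusted p = 0.0529 and 0.0566), and that on krp6 on leaving out BxM of 15 DAP (edgeR adjusted p = 0.0653).

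At 15 DAP the MxB library held more of these transcripts than the BxM library. Of the 12 replication genes that fell, 11 were higher in MxB at 15 DAP, and of the 17 cell cycle genes 16 were. Over all models that fell the share was 49.9%. At 10 DAP the numbers were 9 of 12 and 14 of 17, against 59.3% of all models that fell. The histone genes, given next, went the other way. Of the 9 that fell, 3 were higher in MxB at 15 DAP and 2 at 10 DAP. With 1 library per cross and age, these differences between the crosses were not tested.

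Core and linker histones package DNA and are made mainly as it is copied. Of 10 tested, 9 fell and none rose, with a median of -2.90. The H4 gene H4C7 (GRMZM2G084195) fell from 718 and 376 CPM to 28.3 and 27.8 CPM (log2 fold change -4.27 with SE 0.56, edgeR adjusted p = 0.00174). The linker histone gene hon110 (GRMZM2G164020) fell from 848 and 491 CPM to 207 and 97.6 CPM (log2 fold change -2.17 with SE 0.32, edgeR adjusted p = 0.00264). In both genes BxM lay above MxB at both ages. The member that did not pass, his2b5, was at 486 and 157 CPM at 10 DAP and 18.3 and 8.27 CPM at 15 DAP (edgeR adjusted p = 0.183).

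Of DNA methylation genes, met2 (GRMZM2G025592) fell from 113 and 91.7 CPM to 3.76 and 10.1 CPM (log2 fold change -3.90 with SE 0.46, edgeR adjusted p = 0.0012). The chromomethylase gene met5 (GRMZM2G005310) fell from 87.9 and 63.5 CPM to 8.01 and 9.37 CPM (log2 fold change -3.08 with SE 0.40, edgeR adjusted p = 0.00169). ZMET1, the maintenance methyltransferase gene, was at 81.4 and 83.9 CPM at 10 DAP and 34 and 41.5 CPM at 15 DAP and did not pass (edgeR adjusted p = 0.0585). All 15 DAP values of these 3 genes lay below those at 10 DAP. Polycomb genes encode subunits of a complex that marks histones for repression. Of the Polycomb genes fie1 was at 224 and 151 CPM at 10 DAP and 53.7 and 44.6 CPM at 15 DAP (log2 fold change -1.94 with SE 0.64, edgeR adjusted p = 0.0695), mez1 at 51.7 and 32.8 CPM at 10 DAP and 70.7 and 37.5 CPM at 15 DAP (edgeR adjusted p = 0.642), and none passed. The WD40 gene nfc103 was the remaining 1 of 14 members to fall, with a log2 fold change of -0.81 (SE 0.21, edgeR adjusted p = 0.0295), and lost its call with RLE or upper-quartile factors (edgeR adjusted p = 0.15 and 0.179) and on leaving out any 1 of the 4 libraries (edgeR adjusted p 0.0943 to 0.165). With those factors 1 of the 14 rose and 2 fell. With TMM factors 21.4% of the 14 fell, against 14.0% of all models. The calls on met2 and met5 held throughout.

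The 6 listed genes known to be imprinted in maize endosperm, fie1, fie2, mez1, MEG1, NRP1 and fl3, held no common direction. MEG1, a transfer layer peptide, fell from 66.4 and 93.6 CPM to 0 and 0.183 CPM (log2 fold change -9.65 with SE 1.45, edgeR adjusted p = 0.00303), on 5 counts at 15 DAP, and the other 5 did not pass. Parental alleles cannot be read from these counts.

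Tubulins form the spindle and the arrays that guide wall synthesis. Of 17 tested tubulin and actin models, 11 fell and none rose, with a median of -1.58. The gene tub5 (GRMZM2G133802) fell from 496 and 523 CPM to 41.1 and 44.8 CPM (log2 fold change -3.57 with SE 0.26, edgeR adjusted p = 0.000295). The alpha-tubulin gene tua4 (GRMZM2G152466) fell from 2994 and 2699.8 CPM to 293 and 428 CPM (log2 fold change -2.97 with SE 0.41, edgeR adjusted p = 0.002). Against these, the alpha-tubulin model of TUA1, to which TUA2 also maps, was at 1589 and 1094 CPM at 10 DAP and 2065 and 1591 CPM at 15 DAP (edgeR adjusted p = 0.333) and tua6 at 479 and 575 CPM at 10 DAP and 375 and 518 CPM at 15 DAP (edgeR adjusted p = 0.579). Among actins Maz83 fell from 88.5 and 108 CPM to 16.7 and 17.6 CPM (log2 fold change -2.50 with SE 0.29, edgeR adjusted p = 0.00117), while ACT-1 and Maz95 did not pass (edgeR adjusted p = 0.134 and 0.568). In each cross tua4 was lower and TUA1 higher at 15 than at 10 DAP. The calls on tub5, tua4 and Maz83 held throughout. The call on tub6 was lost without the cross term (edgeR adjusted p = 0.0513). The calls on tub6 and tua5 were lost with RLE and upper-quartile factors (edgeR adjusted p up to 0.0626 and 0.0675). Members that rose and fell numbered 0 and 7 on leaving out MxB of 10 DAP.

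Of the autophagy genes Atg8b, Atg8d, Atg8e and atg6 rose, and the protease genes see2b, mir3 and ccp1 fell. Atg8 proteins coat the membranes that enclose cell contents for breakdown. Atg8e (GRMZM2G014975) rose from 15.1 and 13.4 CPM to 121 and 118 CPM (log2 fold change 3.07 with SE 0.23, edgeR adjusted p = 0.000302). Atg8d (GRMZM2G134613) rose from 28.5 and 32.4 CPM to 126 and 117 CPM (log2 fold change 1.99 with SE 0.21, edgeR adjusted p = 0.000877). The gene atg6 (GRMZM2G092112) rose from 21.5 and 23.5 CPM to 41.3 and 56.5 CPM (log2 fold change 1.11 with SE 0.23, edgeR adjusted p = 0.0126). Of the other Atg8 genes, Atg8b rose by a log2 of 0.82 (SE 0.24, edgeR adjusted p = 0.0499), and Atg8a and Atg8c did not pass (log2 fold changes -0.34 and 0.50, edgeR adjusted p = 0.446 and 0.347). The calls on Atg8d and Atg8e held throughout and that on atg6 was lost on leaving out BxM of 10 DAP, MxB of 10 DAP or MxB of 15 DAP (edgeR adjusted p = 0.0813, 0.113 and 0.0818). The call on Atg8b was lost without the cross term (edgeR adjusted p = 0.233) and on leaving out any 1 of the 4 libraries (edgeR adjusted p 0.14 to 0.248).

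Among proteases, the legumain gene see2b (GRMZM2G093032) fell from 63.4 and 35.2 CPM to 0.965 and 2.31 CPM (log2 fold change -4.83 with SE 0.53, edgeR adjusted p = 0.000948). The cysteine protease gene mir3 (GRMZM2G166281) fell from 97.7 and 55.2 CPM to 2.12 and 2.16 CPM (log2 fold change -5.07 with SE 0.43, edgeR adjusted p = 0.000437). The cysteine protease gene ccp1 fell from 147 and 243 CPM to 29.1 and 73 CPM (log2 fold change -1.97 with SE 0.43, edgeR adjusted p = 0.0147). The gene endo1, listed as an endopeptidase, rose from 485 and 368 CPM to 946 and 927 CPM (log2 fold change 1.13 with SE 0.29, edgeR adjusted p = 0.0263), and cys2 was at 243 and 277 CPM at 10 DAP and 172 and 191 CPM at 15 DAP (edgeR adjusted p = 0.137). Over the list of 19 tested members 5 rose and 6 fell, with a median of -0.52. The call on ccp1 was lost on leaving out MxB of 10 DAP or BxM of 15 DAP (edgeR adjusted p = 0.102 and 0.108), and that on endo1 on leaving out any 1 of the 4 libraries (edgeR adjusted p 0.0601 to 0.224). Those on see2b and mir3 held throughout. Higher and lower members numbered 2 and 6 on leaving out BxM of 10 DAP, 2 and 3 on leaving out MxB of 10 DAP, 3 and 3 on leaving out BxM of 15 DAP and 2 and 4 on leaving out MxB of 15 DAP.

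Genes of defence proteins changed in both directions. Of 22 tested, 4 rose (18.2%) and 3 fell (13.6%), against 3.73% and 14.0% of all models. The median was 0.83, and with upper-quartile factors 5 rose and 2 fell. The gene rip1 (GRMZM2G063536), of the ribosome-inactivating protein b-32, rose from 158 and 131 CPM to 3862 and 2949 CPM (log2 fold change 4.58 with SE 1.10, edgeR adjusted p = 0.022). The chitinase gene chiB (GRMZM2G005633) rose from 20.1 and 21 CPM to 384 and 308 CPM (log2 fold change 4.06 with SE 0.82, edgeR adjusted p = 0.0104). MPI (GRMZM2G028393), of a proteinase inhibitor, rose from 103 and 24.1 CPM to 723 and 447 CPM (log2 fold change 3.39 with SE 0.76, edgeR adjusted p = 0.0164). In all 3 genes BxM lay above MxB at 15 DAP. Cystatin genes went opposite ways: as cc6 rose, cc8 (GRMZM2G401374) fell from 85.6 and 366 CPM to 0.965 and 1.13 CPM (log2 fold change -7.57 with SE 0.80, edgeR adjusted p = 0.000807), and both calls held throughout. The call on rip1 was lost on leaving out BxM of 10 DAP, MxB of 10 DAP or BxM of 15 DAP (edgeR adjusted p = 0.0716, 0.152 and 0.142), that on chiB on leaving out BxM of 10 DAP or MxB of 10 DAP (edgeR adjusted p = 0.0799 and 0.0759), and that on MPI on leaving out MxB of 10 DAP, BxM of 15 DAP or MxB of 15 DAP (edgeR adjusted p = 0.127, 0.0652 and 0.0566). The rises and falls numbered 2 and 3 on leaving out BxM of 10 DAP, 1 and 2 on leaving out MxB of 10 DAP and 2 and 3 on leaving out BxM of 15 DAP.

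Of 24 tested members of the list of heat shock, late embryogenesis and antioxidant genes, 5 fell and none rose. The share that fell was 20.8%, against 14.0% of all models. Counts of members that rose and fell were 2 and 4 on leaving out BxM of 10 DAP and 0 and 2 on leaving out BxM of 15 DAP. HSP90-2 (GRMZM2G012631) fell from 1548 and 1410.4 CPM to 349 and 397 CPM (log2 fold change -1.98 with SE 0.33, edgeR adjusted p = 0.00479), a call lost on leaving out BxM of 15 DAP (edgeR adjusted p = 0.055), and the dehydrin gene dhn2 (GRMZM2G373522) from 84.4 and 126 CPM to 6.85 and 14.7 CPM (log2 fold change -3.32 with SE 0.36, edgeR adjusted p = 0.000888), a call that held throughout. Both genes were lower in each 15 DAP library than in each 10 DAP library. The chaperone gene hsp82 was at 35.8 and 11 CPM at 10 DAP and 22.9 and 295 CPM at 15 DAP (edgeR adjusted p = 0.637) and hsp101 at 64.3 and 21.7 CPM at 10 DAP and 172 and 301 CPM at 15 DAP (edgeR adjusted p = 0.261). The small heat shock gene hsp18a was at 14.6 and 9.73 CPM at 10 DAP and 45.7 and 92.3 CPM at 15 DAP (edgeR adjusted p = 0.216), and hsp18c at 24.9 and 21.5 CPM at 10 DAP and 109 and 160.4 CPM at 15 DAP (edgeR adjusted p = 0.261). In these 4 genes MxB of 15 DAP was the highest library, and in all but hsp82 BxM was also higher at 15 than at 10 DAP. A further member, hsp22, was at 407 and 108 CPM at 10 DAP and 77.9 and 104 CPM at 15 DAP (edgeR adjusted p = 0.339). None of the 5 passed, and they were singled out after their values were seen.

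Genes of oil bodies and lipid synthesis fell or did not pass. Of 16 tested, 8 fell and none rose (6 with upper-quartile factors), with a median of -2.13. Members that rose and fell numbered 0 and 2 on leaving out BxM of 10 DAP, 0 and 5 on leaving out MxB of 10 DAP, 0 and 4 on leaving out BxM of 15 DAP and 0 and 4 on leaving out MxB of 15 DAP. The oleate desaturase gene fad2 (GRMZM2G064701) fell from 106 and 93.9 CPM to 12.3 and 18.3 CPM (log2 fold change -2.72 with SE 0.29, edgeR adjusted p = 0.00088), whereas a second desaturase gene written FAD2 (GRMZM2G056252) was at 1063 and 989 CPM at 10 DAP and 594 and 674 CPM at 15 DAP (edgeR adjusted p = 0.208). The oleosin gene ole1 (GRMZM2G337229), whose product coats oil bodies, fell from 334 and 166 CPM to 16.4 and 26.2 CPM (log2 fold change -3.71 with SE 0.88, edgeR adjusted p = 0.0209), a call lost on leaving out BxM of 10 DAP, BxM of 15 DAP or MxB of 15 DAP (edgeR adjusted p = 0.178, 0.143 and 0.11). SAD1, a stearoyl desaturase gene, was at 627 and 411 CPM at 10 DAP and 653 and 524 CPM at 15 DAP (edgeR adjusted p = 0.707). Oleosins are also embryo and aleurone markers, and those lists are given with the marker lists, and their part in the result was not tested.

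All hormone genes that passed the test were lower at 15 DAP. Of 32 tested, 9 fell and none rose, with a median of -1.94, which becomes -1.05 once members listed at 0 enter at their bound. The median depends on the fit: it was -0.99 on leaving out BxM of 10 DAP, -1.28 on leaving out BxM of 15 DAP, -0.59 with the 6 endosperm libraries, -0.44 with the 4 compared libraries and -0.41 in DESeq2. The auxin efflux gene PIN1a (GRMZM2G098643) fell from 37.4 and 84.2 CPM to 0.0482 and 0.146 CPM (log2 fold change -9.18 with SE 0.74, edgeR adjusted p = 0.00039). PIN10a fell from 4.67 and 11.6 CPM to 0.0965 and 0.220 CPM (log2 fold change -5.61 with SE 0.63, edgeR adjusted p = 0.000982). Cytokinin oxidases break down cytokinin, and CKX10 (GRMZM2G348452) fell from 6.89 and 7.39 CPM to 1.16 and 0.512 CPM (log2 fold change -3.10 with SE 0.54, edgeR adjusted p = 0.00566). The abscisic acid synthesis gene vp14 fell from 4.94 and 6.32 CPM to 0 and 0.329 CPM (log2 fold change -5.04 with SE 0.98, edgeR adjusted p = 0.00913). The ethylene-forming ACC oxidase gene ACO20 fell from 9.94 and 77.8 CPM to 1.69 and 3.07 CPM (log2 fold change -4.03 with SE 0.85, edgeR adjusted p = 0.013). Of the auxin synthesis genes TAR3 and yuc did not pass. TAR3 was at 159 and 56.1 CPM at 10 DAP and 1059 and 558 CPM at 15 DAP (log2 fold change 2.97 with SE 0.97, edgeR adjusted p = 0.0687), with both 15 DAP libraries higher. The gene yuc was at 350.1 and 206 CPM at 10 DAP and 53.3 and 139 CPM at 15 DAP (log2 fold change -1.53 with SE 0.76, edgeR adjusted p = 0.217), with both lower. Calls on PIN1a, PIN10a, CKX10 and vp14 held throughout, and that on ACO20 was lost on leaving out MxB of 10 DAP, BxM of 15 DAP or MxB of 15 DAP (edgeR adjusted p = 0.0812, 0.0928 and 0.0816).

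The aquaporin genes PIP2-1 and TIP3-1 rose, and the aquaporin gene PIP1-1 and the proton pump gene mha2 fell. Of 26 tested, 2 rose and 8 fell, with a median of -2.38, which becomes -1.92 in the same way. Members that rose and fell numbered 0 and 7 on leaving out BxM of 10 DAP, 0 and 7 on leaving out MxB of 10 DAP and 0 and 6 on leaving out BxM of 15 DAP. The plasma membrane aquaporin gene PIP2-1 (GRMZM2G014914) rose from 657 and 463 CPM to 2886 and 2269.8 CPM (log2 fold change 2.20 with SE 0.50, edgeR adjusted p = 0.0178). The vacuolar aquaporin gene TIP3-1 (GRMZM2G305446) rose from 4.98 and 3.76 CPM to 97.6 and 64.7 CPM (log2 fold change 4.20 with SE 0.85, edgeR adjusted p = 0.0106). The aquaporin gene PIP1-1 (GRMZM2G174807) fell from 54.1 and 41.7 CPM to 6.51 and 0.586 CPM (log2 fold change -4.14 with SE 0.66, edgeR adjusted p = 0.00391). Of the 2 measured plasma membrane proton pump genes, which energise uptake, mha2 (GRMZM2G019404) fell from 146 and 247 CPM to 3.38 and 3.99 CPM (log2 fold change -5.75 with SE 0.47, edgeR adjusted p = 0.000402) and mha1 stayed under 1 CPM in all 4 libraries. The inositol phosphate synthase genes, at the start of the path to the phosphorus store phytate, both fell. The gene mips2 (GRMZM2G004528) fell from 345 and 272 CPM to 10.2 and 12 CPM (log2 fold change -4.75 with SE 0.50, edgeR adjusted p = 0.000822). INO1 (GRMZM2G155242) fell from 339.8 and 344 CPM to 57.9 and 112 CPM (log2 fold change -2.11 with SE 0.31, edgeR adjusted p = 0.00287). The calls on PIP1-1, mha2, mips2 and INO1 held throughout, that on PIP2-1 was lost on leaving out BxM of 10 DAP, MxB of 10 DAP or BxM of 15 DAP (edgeR adjusted p = 0.0625, 0.147 and 0.109), and that on TIP3-1 on leaving out BxM of 10 DAP, MxB of 10 DAP or BxM of 15 DAP (edgeR adjusted p = 0.0808, 0.083 and 0.0663).

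Cellulose synthase genes did not pass, while a glucan synthase gene rose and most expansin genes that passed fell. Among 12 cellulose synthase genes none passed, and cesa5 was at 286 and 312 CPM at 10 DAP and 348 and 408 CPM at 15 DAP (edgeR adjusted p = 0.435). The gene CslF6-1 (GRMZM2G110145), of the enzyme that makes mixed-linkage glucan, a main wall polymer of grass endosperm, rose from 100.1 and 92.6 CPM to 605 and 418 CPM (log2 fold change 2.41 with SE 0.42, edgeR adjusted p = 0.00586), a call lost on leaving out MxB of 10 DAP (edgeR adjusted p = 0.0575). Expansins loosen walls during growth. The expansin gene expA4 (GRMZM2G445169) fell from 161 and 129 CPM to 15.1 and 13.1 CPM (log2 fold change -3.37 with SE 0.36, edgeR adjusted p = 0.000882), a call that held throughout, and EXPA5 rose from 0.996 and 0.846 CPM to 10.1 and 3.22 CPM (log2 fold change 2.85 with SE 0.58, edgeR adjusted p = 0.0112), a call lost on leaving out BxM of 10 DAP, MxB of 10 DAP or BxM of 15 DAP (edgeR adjusted p = 0.0654, 0.0884 and 0.0742). In all, 2 of 30 tested rose (6.67%) and 6 fell (20.0%), against 3.73% and 14.0% of all models. Of the 30, 4 had no count in these 4 libraries. With upper-quartile factors 3 rose and 5 fell. Numbers that rose and fell were 1 and 5 on leaving out BxM of 10 DAP, 0 and 2 on leaving out MxB of 10 DAP and 2 and 1 on leaving out MxB of 15 DAP.

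Markers of the parts of the kernel were read beside these results. The 17 transfer layer markers summed to 2859 and 5039.7 CPM at 10 DAP and to 6.27 and 13.1 CPM at 15 DAP, and 15 fell. The exceptions were MRP1, a regulator of the layer, at 0.996 and 0.796 CPM at 10 DAP and 1.06 and 0.366 CPM at 15 DAP, and ebe1, at 4.92 and 2.32 CPM at 10 DAP and 3.62 and 2.12 CPM at 15 DAP (edgeR adjusted p = 0.748 and 0.794). The 6 markers of the region around the embryo summed to 87.3 and 175 CPM at 10 DAP and 0.386 and 1.13 CPM at 15 DAP, and 5 fell. The 8 ovule, pericarp and nucellus markers summed to 208 and 396 CPM at 10 DAP and 2.80 and 2.67 CPM at 15 DAP, and 6 fell. At 10 DAP, MxB held more than BxM in each of these 3 lists. At 15 DAP ebe2, esr6, ae1 and zmm17 were at 0 in both libraries.

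The sums of the aleurone and embryo lists did not vanish in this way. In the embryo list most called members still fell, and the median log2 fold change was -3.48. With members at 0 entered at their bound that median was -1.30. The fitted median was -0.42 on leaving out BxM of 10 DAP. It was -3.61 without MxB of 10 DAP, -3.68 without BxM of 15 DAP and -4.395 without MxB of 15 DAP. The 8 aleurone markers summed to 1873 and 1533 CPM at 10 DAP and 809 and 781 CPM at 15 DAP. Of these, 3 fell: vpp1, a vacuolar proton pump gene, from 778 and 766 CPM to 20.3 and 42.9 CPM (log2 fold change -4.64 with SE 0.47, edgeR adjusted p = 0.000738), the receptor kinase gene cr4 from 32.9 and 38.9 CPM to 6.90 and 7.76 CPM (log2 fold change -2.29 with SE 0.24, edgeR adjusted p = 0.000825), and ole17. Sal1 was at 165 and 119.9 CPM at 10 DAP and 152 and 135 CPM at 15 DAP, and c1, the regulator of aleurone colour, was under 0.1 CPM at 10 DAP and at 0 at 15 DAP. The 12 embryo markers summed to 552 and 292 CPM at 10 DAP and 1105 and 441 CPM at 15 DAP, a sum led at 15 DAP by the globulin gene glb3, which rose from 77.3 and 26.3 CPM to 1048 and 379.9 CPM (log2 fold change 3.78 with SE 0.93, edgeR adjusted p = 0.0236, a call lost on leaving out MxB of 10 DAP or BxM of 15 DAP (edgeR adjusted p = 0.145 and 0.246)), while 5 fell. Embryo markers that rose and fell numbered 1 and 2 on leaving out BxM of 10 DAP, 0 and 3 on leaving out MxB of 10 DAP, 0 and 1 on leaving out BxM of 15 DAP and 1 and 2 on leaving out MxB of 15 DAP. The 12 photosynthesis markers stayed between 15.6 and 23.4 CPM in sum, with 3 of them at 0 in all 4 libraries. The 27 starchy endosperm markers summed to 9369 and 6051 CPM at 10 DAP and 283747 and 201728 CPM at 15 DAP, and 20 rose. Most of these markers are zein genes already counted in the storage protein list, so their rise repeats that result and is no separate reading. The starchy endosperm markers that rose and fell numbered 6 and 0 on leaving out BxM of 10 DAP, 4 and 0 on leaving out MxB of 10 DAP, 3 and 0 on leaving out BxM of 15 DAP and 8 and 0 on leaving out MxB of 15 DAP. The part of the basal and outer tissues in the falls of sugar, amino acid, hormone and transport genes was not tested.

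**Figure D4:**
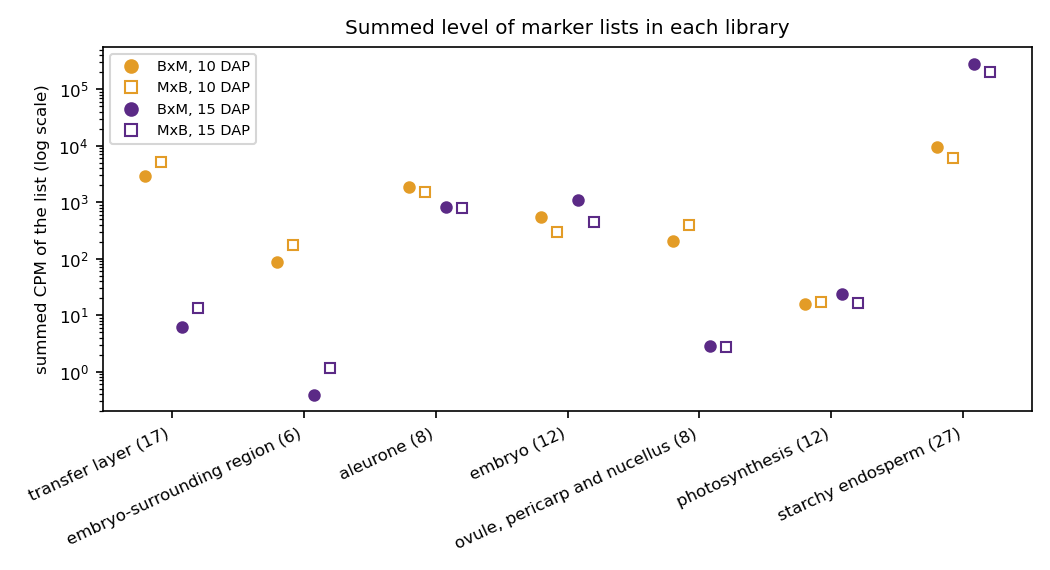
Summed level (CPM after TMM scaling, log scale) of each marker list, with the number of tested markers in brackets, in the 4 libraries (10 DAP orange, 15 DAP purple, BxM filled, MxB open). The transfer layer, embryo-surrounding and ovule lists drop to at most 13.1 CPM at 15 DAP. The aleurone list falls less, from 1873 and 1533 CPM at 10 DAP to 809 and 781 CPM at 15 DAP. The starchy endosperm list, mostly zein genes of the storage protein list, lies at 201728 CPM or more at that age.

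The change from 10 to 15 DAP was alike in both crosses for most models. Across 20875 models with a mean count of at least 100 and no 0, the log2 ratio of 15 over 10 DAP correlated between BxM and MxB at a Pearson r of 0.86. Models are not independent replicates, and the scaling of each library is shared by all its models. All 5501 called models of this set moved the same way in both crosses, as did 78.5% of the 15374 that were not called. Disagreement between the crosses enters the spread that the test uses, so the first share follows in large part from the test. Among called models the crosses differed by a median log2 of 0.45, and in 792 models of the set they differed by 2 or more, 363 with the more positive change in MxB and 429 in BxM.

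**Figure D5:**
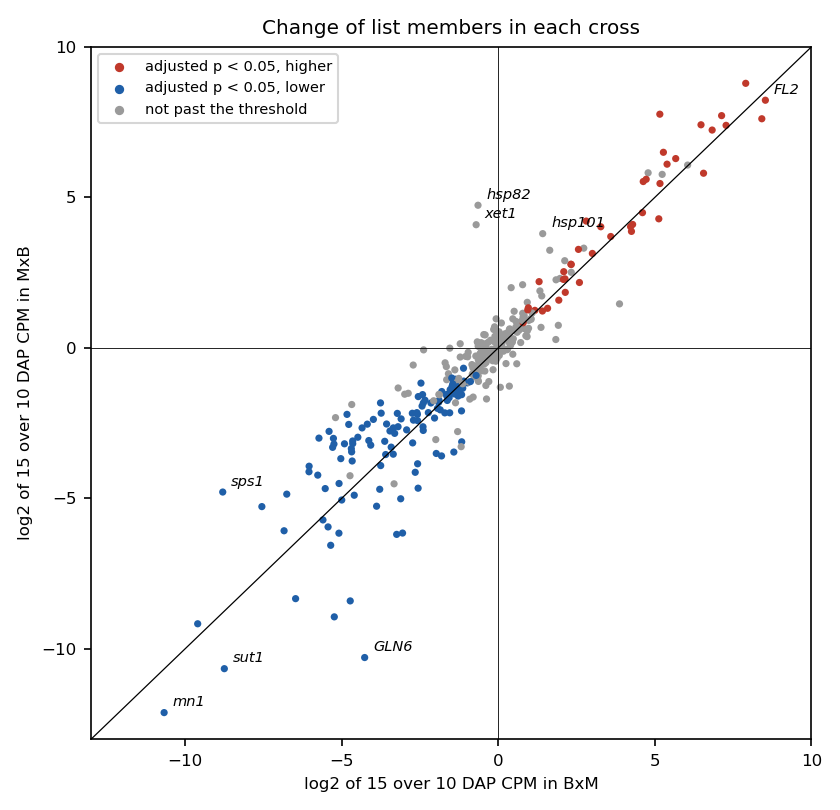
Log2 of 15 over 10 DAP CPM in BxM (horizontal axis) and MxB (vertical axis) for 350 list members with a mean count of at least 100 and no 0, coloured by edgeR call (adjusted p under 0.05, red higher, blue lower, grey not past), with the diagonal of equal change. Of these, 310 moved the same way in both crosses, while hsp82 and xet1 lie far above the diagonal and GLN6 far below it.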

How the data were processed

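Total RNA was extracted with SDS and phenol and sequenced as Illumina libraries, per the labels' protocols. The authors deposited raw read counts per gene model for each of 12 libraries, and a signal that they scaled per 1000000 reads with edgeR's TMM factors, per the deposited readme. The signal is a constant multiple of the counts within a library and was used only for the authors' factors. Bowtie and bedtools are named in the submitters' processing notes without a version. Genome build, annotation and strand of counting: not given in the sources used here, so overlapping and antisense models cannot be told apart. Total counts of the 4 compared libraries ran from 35401314 to 70930121.

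After setting aside 21 models, models with low counts were dropped by filterByExpr, and 46377 were fitted with edgeR 4.0.16 in R 4.3.3 (quasi-likelihood, TMM factors, age and cross as terms, 12 libraries, 5 residual degrees of freedom, Benjamini-Hochberg adjustment). Alternatives were other libraries in the fit, no cross term, RLE, upper-quartile and the authors' factors, no filter, other handling of the set-aside models, identical models once, each library left out and DESeq2 1.42.0. The scripts were also run on simulated data with less spread than these libraries, so that run gives no error rate for the tests here. Named models are the 12 largest changes each way with a mean count of at least 100, the 10 most abundant at each age and, per list, those of lowest adjusted p and highest level. The reference pairs 2655 of 108342 models with a name and holds no descriptions, so lists were filled by symbol alone. Members and lists were chosen with earlier results of these data known.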

Additional observations from a re-analysis of the deposited data

Results flagged for a closer look

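In 3 listed genes the crosses moved in opposite directions from 10 to 15 DAP by a log2 of at least 0.5 each, and with 1 library per cross and age this difference was not tested. For PDIL2-1, of the protein disulfide isomerase family, the log2 ratio of 15 over 10 DAP was 0.593 in BxM and -0.5275 in MxB. For xet1, of a xyloglucan endotransglycosylase that remodels cell walls, it was -0.7047 in BxM and 4.094 in MxB, the latter from 1.19 to 20.4 CPM. For hsp82, a heat shock protein gene, it was -0.645 in BxM and 4.741 in MxB, from 11 to 295 CPM. None of the 3 passed the test of age (edgeR adjusted p = 0.943, 0.234 and 0.637).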

How the results depend on the processing

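No called gene of a list changed direction in any fit. Higher models numbered 3879 with the 6 endosperm libraries alone, 4809 with the 4 libraries of 10 and 15 DAP alone, 2642 with upper-quartile factors and 4254 with DESeq2, against 1729, and between 458 and 2418 over the fits that leave out 1 library. Lower models numbered between 3208 and 6817 over those fits. Higher list members numbered 70 with the 6 endosperm libraries, 93 with the 4 libraries and 68 with DESeq2, against 43, and between 14 and 49 on leaving out 1 library, while lower members numbered between 87 and 152. The called models in the gene and marker lists, with those named for their change or abundance, numbered 228. Of these, 209 to 224 kept their call when a library other than the 4 compared was left out. Fewer kept the call when 1 of the 4 compared libraries was left out, which leaves that age with 1 library. With RLE or upper-quartile factors 206 kept it, and with the authors' factors 227. Keeping the set-aside models in the fit gave 1729 higher and 6491 lower models, a stricter rule for setting aside gave 1728 and 6463, and counting identical models once gave 1725 and 6401. Without MxB of 0 DAP, 49062 models passed the filter in place of 46377 and the median log2 fold change was -0.18. Counting models of the same reads once, added after seeing the data, moved the share of the 1000 most abundant from 69.98% to 67.7% (BxM) and from 65.5% to 64.1% (MxB) at 15 DAP. For the shifts between settings the cause was not tested. Some of these fits also hold fewer libraries.

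No paired analysis was possible because all libraries carry the replicate number 1, which pairs no samples. The ages were compared within crosses, since the cross is a term in the fit, and without that term 1333 models were higher and 5688 lower. Leaving out a library of 10 or 15 DAP leaves that age with 1 library, which is then assumed to vary like the other groups. At these depths a model at 0 in both 15 DAP libraries may still hold up to 3 counts, and these limits cover counting error only. The set-aside zeros leave gz27, gz16, sh1 and several alpha-zein genes without a value at 15 DAP.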

Other observations

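Genes tied to the embryo and to stress held further changes in endosperm from 10 to 15 DAP. The seed regulator gene vp1 fell from 25.3 and 13.6 CPM to 0.145 and 1.32 CPM (log2 fold change -4.95 with SE 1.05, edgeR adjusted p = 0.0158), and ocl1, a homeobox gene of the outer cell layer, fell to 0 and 0.842 CPM (log2 fold change -5.42 with SE 0.86, edgeR adjusted p = 0.0038). The globulin gene glb1 was at 22.9 and 18 CPM at 10 DAP and 4.44 and 3.66 CPM at 15 DAP (edgeR adjusted p = 0.117). All 3 genes were lower in both 15 DAP libraries, and the call on vp1 was lost on leaving out BxM of 10 DAP or BxM of 15 DAP (edgeR adjusted p = 0.0686 and 0.0612). The stress gene asr1 fell from 55.1 and 13.8 CPM to 1.35 and 0.146 CPM (log2 fold change -5.87 with SE 0.83, edgeR adjusted p = 0.00236), and the superoxide dismutase gene sod2 from 128 and 138 CPM to 47.3 and 55 CPM (log2 fold change -1.38 with SE 0.26, edgeR adjusted p = 0.00764), while cat1, of catalase, was at 285 and 376 CPM at 10 DAP and 254 and 228 CPM at 15 DAP (edgeR adjusted p = 0.355). The call on sod2 was lost on leaving out MxB of 10 DAP or BxM of 15 DAP (edgeR adjusted p = 0.0516 and 0.0661), and that on asr1 without the cross term (edgeR adjusted p = 0.0805). The expansin genes expB7 and expB2 fell as expA4 did, expB7 from 5.11 and 37.3 CPM to 0.193 and 0.110 CPM (log2 fold change -6.99 with SE 1.23, edgeR adjusted p = 0.00593), with MxB far above BxM at 10 DAP. The call on expB7 was lost on leaving out MxB of 15 DAP (edgeR adjusted p = 0.0612), and that on expB2 on leaving out MxB of 10 DAP or MxB of 15 DAP (edgeR adjusted p = 0.0743 and 0.059).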
